A study of Mus musculus with 6 samples.

Results

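Notch receptors, their ligands and the fringe enzymes that modify the receptors were examined in the pineal gland of newborn mice with and without Neurod1. The 10 genes are the receptors Notch1 and Notch2, the Delta-type ligands Dll1 and Dll3, the Jagged ligands Jag1 and Jag2, the glycosyltransferases Lfng, Mfng and Rfng, and Dner, a transmembrane protein with EGF-like repeats. They were chosen by name from 18193 genes that the platform annotation names, with earlier results of these arrays known. Every probe set that the annotation assigns to one of these genes alone was read, and each gene is represented by its probe set with the highest mean over the 6 arrays. The Neurod1 knockout group held 3 pools from homozygous knockout mice, and the wildtype group held 3 pools from wildtype mice; both were of strain 129 at postnatal day 0. Each pool combined 3 pineal glands taken by day from animals under a light cycle of 12 h on and 12 h off, and was run on 1 array. Pools of the same number share a date in the labels. The labels call the animals both knockout and transgenic, and do not say which part of Neurod1 was removed.

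Notch signalling passes between touching cells. A Delta or Jagged ligand on the surface of one cell binds a Notch receptor on its neighbour, the receptor is cleaved by an ADAM protease and then by gamma-secretase, and the freed intracellular domain enters the nucleus and joins the DNA-binding protein RBPJ to switch on repressor genes of the Hes and Hey families. Fringe enzymes extend the sugars on the EGF-like repeats of the receptor and so change which ligands it answers to. In the developing nervous system, proneural basic helix-loop-helix factors raise Delta ligands in cells that become neurons, while Notch activity keeps neighbours as progenitors or glia. The pathway also acts in blood vessels, where Jag1 and Notch receptors are used by endothelial and mural cells. Neurod1 is a basic helix-loop-helix factor of neurons, endocrine cells and photoreceptors, and such factors bind the E-box, the sequence CANNTG.

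Because Neurod1 binds E-boxes, the start-site windows of the Notch genes were read from the RefSeq promoter table of build GRCm38.p6, which holds 250 bases before and 50 bases after each start. The table held 10 windows for 9 of the 10 genes, 2 of them for Dll1, and none for Mfng. CANNTG on either strand was present in 6 of the 10 windows, against 72.3% of all 32851 windows. The form CAGATG was in 0 of the 10 windows (17.2% of all windows), and the form CAGCTG in 4, those of Jag1, Lfng, Dll3 and the upstream window of Dll1 (16.3% of all windows); both forms are cases of CANNTG. The core sequence that RBPJ recognises, TGGGAA, was in the Lfng window alone of the 10 on either strand (25.6% of all windows). Other forms of CANNTG were in the Rfng window and the other Dll1 window. The 4 windows with CAGCTG are shown because that form was in 4 of the 9 genes, beside 18.3% of all 27025 genes. The form was thus picked after its count was read. Each is 30 bases, 5′ to 3′ on the strand of the gene, with CAGCTG in capitals.
Jag1, chr2:137116585-137116614, minus strand: ccgcgtttcatgCAGCTGatctgaaaggga
Lfng, chr5:140607183-140607212, plus strand: ccgtgggtacccCAGCTGggtggttcccag
Dll3, chr7:28301775-28301804, minus strand: tccggcatccagCAGCTGcgactcctgaga
Dll1, chr17:15377047-15377076, minus strand: tgcattaccataCAGCTGagcgcacaaaga
The E-box began 82 bases before the start site in Jag1, 146 in Lfng, 7 in Dll3 and 132 in Dll1, and Lfng held a second one at its start site. A match is a description of the letters and not of binding, which these arrays did not measure.

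The arrays reported a linear signal per probe set that the authors had scaled to a common level, with array medians of 183.7, 169.6 and 168.1 in knockout pools 1, 2 and 3, against 132.4, 151.0 and 182.0 in wildtype pools 1, 2 and 3. Signals of different probe sets are not compared with each other, since each responds to its own probes. Neurod1 itself had signals of 390, 524 and 123 in knockout pools 1, 2 and 3, against 9027, 9301 and 7519 in wildtype pools 1, 2 and 3, and fell (log2 difference −4.67, SE 0.45, limma adjusted p = 0.0362). It was the 1 gene called among 12797 tested at an adjusted p under 0.05, and its call ended without any one of the wildtype pools or without knockout pool 1 (adjusted p between 0.0985 and 0.621). Pineal identity was visible in all 6 arrays, with Tph1, the tryptophan hydroxylase of serotonin synthesis, between 2755 and 12501 in knockout pools and between 6296 and 15095 in wildtype pools. Some pools stood apart. The summed signal of 5 ribosomal protein genes reached 191506 in knockout pool 1 and no more than 92978 elsewhere, and Ttr of the choroid plexus was 685 in knockout pool 3 and 898 in wildtype pool 1, against 38903 to 87464 in the rest.

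None of the 10 Notch genes was called. Of the 10, 9 passed the filter on dim probe sets, a signal of about 105 on average, and Lfng did not. In limma, 0 of the 9 had an adjusted p under 0.05 in either direction, beside 0% of all tested genes called higher and 0.00781% called lower. At an unadjusted p under 0.05 the count was again 0 of 9, beside 3.34% of all genes, and the smallest p among the 9 was 0.105, for Notch2. With the pool number as a block 0 of 9 were called, beside 0.00781% of all genes, and Notch2 alone had an unadjusted p under 0.05 (6.24% of all genes). Means were higher in knockout for 7 of the 9 and lower for Mfng and Dner, and the median log2 difference was 0.24, beside 0.03 over all tested genes, of which 53.2% had a higher mean and 46.8% a lower one. With each gene taken as the mean of all its probe sets, Notch1 turned lower, 6 of the 9 had higher means and the median was 0.12. Knockout and wildtype overlapped for all 9, beside 10.1% of all genes without overlap. The smallest p that an exact permutation test allows for 3 pools in each group is 0.1, so none was run. limma with array weights, whose estimate stopped before it converged, called Notch1 and Dll3, 2 of 9, beside 22.9% of all tested genes.

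**Figure D1:**
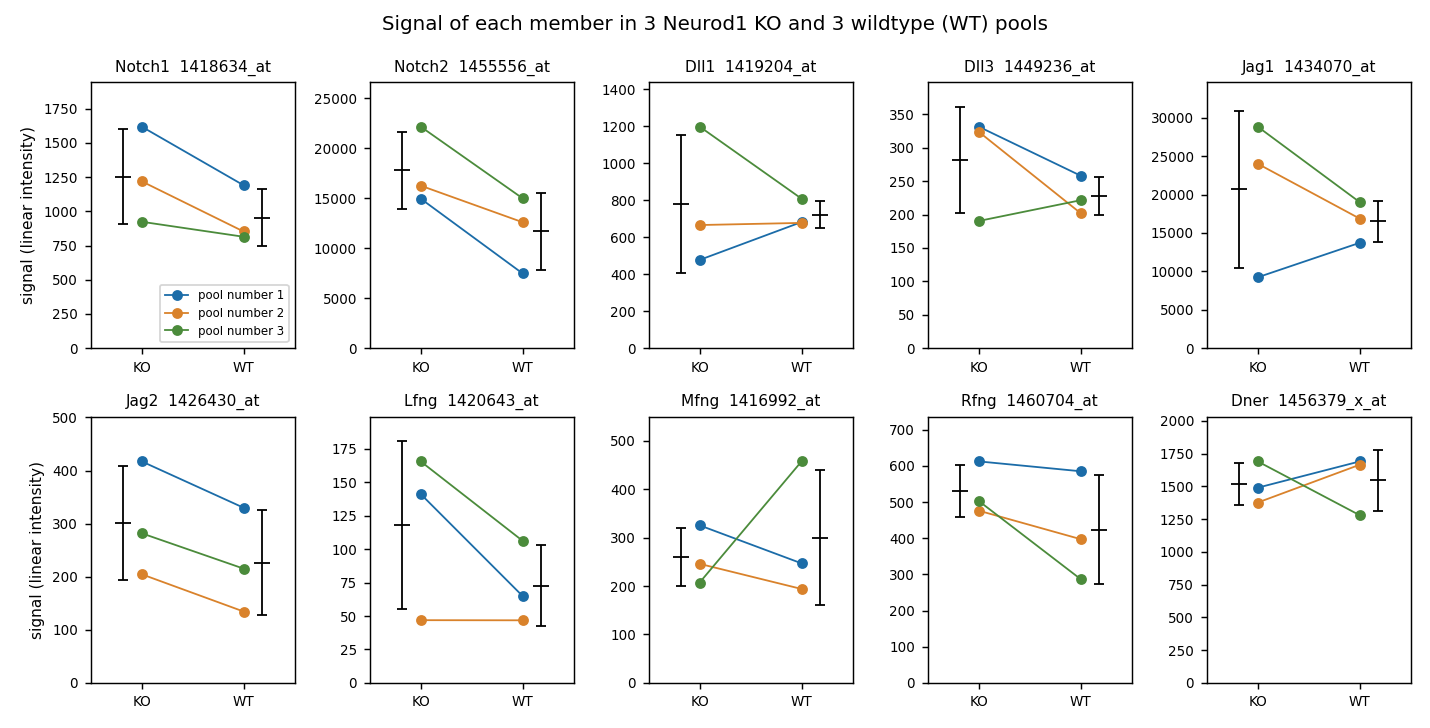
Linear signal of the 10 genes in the knockout (KO, left) and wildtype (WT, right) pools, 1 panel per gene with its probe set. Points of one colour joined by a line share a pool number, and the black dash with bars is the mean ± SD over 3 pools. The Notch2, Notch1, Jag2 and Rfng lines all slope down toward wildtype, while the Jag1, Dll1, Dll3, Mfng and Dner lines run both ways.

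Notch2, a receptor used in progenitors, glia and vessel walls, had the largest difference of the 9. Its probe set 1455556_at had signals of 14942, 16241 and 22140 in knockout pools 1, 2 and 3, against 7467, 12586 and 14976 in wildtype pools 1, 2 and 3. All knockout pools but the first lay above every wildtype pool, and knockout pool 1 lay just under wildtype pool 3. The means were 17774 ± 3836 in knockout and 11676 ± 3836 in wildtype (SD, n = 3 each), a log2 difference of 0.64 (SE 0.36, 95% interval −0.16 to 1.45, limma adjusted p = 0.998). The knockout pool was higher in 3 of 3 pool numbers, by 1.00, 0.37 and 0.56 for numbers 1, 2 and 3. With the pool number as a block the SE was 0.27, the unadjusted p 0.0455 and the limma adjusted p 0.768. The dimmer probe set of Notch2, 1451889_at, ran the same way. It had signals of 349, 259 and 310 in knockout pools 1, 2 and 3, against 135, 108 and 258 in wildtype pools 1, 2 and 3, so that the groups were separated by the narrow gap between knockout pool 2 and wildtype pool 3. Its log2 difference was 0.80 (SE 0.33, 95% interval 0.05 to 1.55, unadjusted p = 0.0387, limma adjusted p = 0.999 over all probe sets). In whole glands, a difference in the number of cells of a type and in the RNA per cell cannot be told apart.

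Notch1, the receptor best known for holding neural progenitors back from differentiation, gave opposite results with its probe sets. The brighter one, 1418634_at, had signals of 1620, 1220 and 924 in knockout pools 1, 2 and 3, against 1191, 853 and 814 in wildtype pools 1, 2 and 3. Each knockout pool was above the wildtype pool of its number, by 0.43, 0.50 and 0.17 on the log2 scale, but the groups overlapped. The log2 difference was 0.37 (SE 0.31, 95% interval −0.34 to 1.07, limma adjusted p = 0.998). The dimmer one, 1418633_at, had signals of 89.9, 74.7 and 102 in knockout pools 1, 2 and 3, against 140, 461 and 328 in wildtype pools 1, 2 and 3. Here every knockout pool lay below every wildtype pool, and the differences within pool numbers 1, 2 and 3 were −0.47, −2.14 and −1.39. All its knockout signals were under the filter signal of 104.7, so it passed the filter only through its wildtype signals. Its separation and p-value are therefore given as a description. The log2 difference was −1.33 (SE 0.41, 95% interval −2.25 to −0.41, unadjusted p = 0.00976, limma adjusted p = 0.999 over all probe sets). Both probe sets thus put the same gene on opposite sides of 0, with a gap of 1.70 between their log2 differences. Among 9215 second or further probe sets of 5484 genes, 38.5% had a difference of opposite sign to the brightest probe set of their gene. The median gap was 0.27. A gap at least as large as that of Notch1 was found for 17, or 0.184%, with Notch1 1418633_at counted among them. The average of both Notch1 probe sets gave a log2 difference of −0.48, so no direction is given for Notch1.

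**Figure D2:**
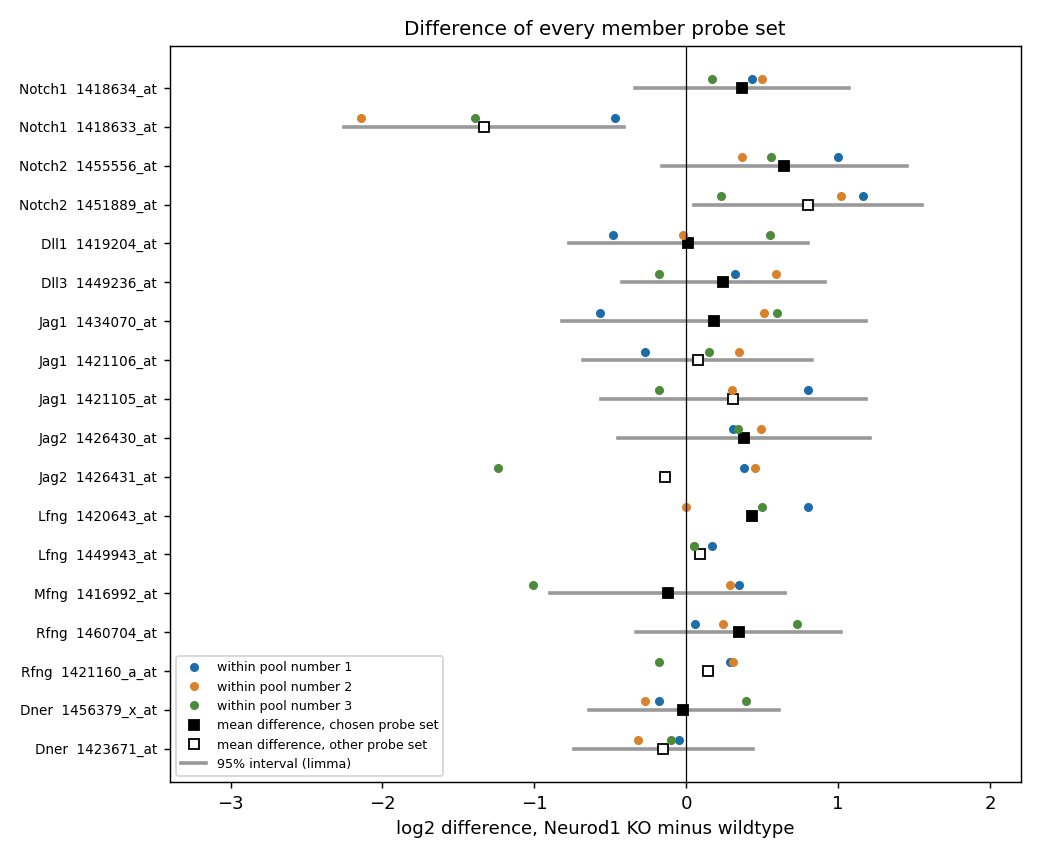
Log2 difference, knockout minus wildtype, for each of the 18 probe sets of the 10 genes. Squares are mean differences (filled for the brightest probe set of a gene, open for the others), grey bars are 95% intervals from limma where the probe set passed the filter, and small coloured points are the differences within pool numbers. The intervals of Notch1 1418633_at (−2.25 to −0.41) and Notch2 1451889_at (0.05 to 1.55) leave out 0 before adjustment, and those of the brightest probe sets include 0. Notch1 1418633_at passed the filter only through its wildtype signals.

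Neither Delta ligand separated the genotypes. Dll1, the Delta ligand that signals from newly forming neurons, had signals of 477, 666 and 1198 in knockout pools 1, 2 and 3, against 682, 678 and 809 in wildtype pools 1, 2 and 3. The lowest and the highest value of the 6 were both in knockout pools. The means were 780 ± 374 in knockout and 723 ± 74.3 in wildtype (SD, n = 3 each), and the log2 difference was 0.01 (SE 0.35, 95% interval −0.77 to 0.80, limma adjusted p = 0.999), made of −0.48, −0.02 and 0.55 within pool numbers 1, 2 and 3. Dll3, a divergent Delta protein that acts inside the cell that makes it and does not activate Notch on neighbours, had signals of 332, 324 and 190 in knockout pools 1, 2 and 3, against 258, 202 and 221 in wildtype pools 1, 2 and 3. Knockout pools 1 and 2 were above all wildtype pools and knockout pool 3 below them. Its log2 difference was 0.24 (SE 0.29, 95% interval −0.42 to 0.91, limma adjusted p = 0.998).

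The genotypes also overlapped for the Jagged ligands. Jag1, a ligand of vessel walls, sensory epithelia and neural progenitors, had signals of 9221, 24026 and 28856 in knockout pools 1, 2 and 3, against 13713, 16883 and 19032 in wildtype pools 1, 2 and 3. As with Dll1, the knockout pools held the lowest and the highest value. The means were 20701 ± 10231 in knockout and 16542 ± 2676 in wildtype (SD, n = 3 each), with a log2 difference of 0.18 (SE 0.44, 95% interval −0.82 to 1.18, limma adjusted p = 0.998). Knockout was lower in pool number 1 (−0.57) and higher in numbers 2 and 3 (0.51 and 0.60). Leaving out both pools of number 1, a setting added once the data were known, gave 0.55. Leaving out knockout pool 1 gave 0.68, knockout pool 2 −0.01 and knockout pool 3 −0.14. The dimmer Jag1 probe set 1421106_at had the same signs within the numbers (−0.27, 0.35 and 0.15), and 1421105_at had others (0.80, 0.30 and −0.18). Jag2 encodes the other Jagged ligand, needed for limb and palate formation in mice. Its probe set 1426430_at had signals of 417, 205 and 282 in knockout pools 1, 2 and 3, against 330, 134 and 215 in wildtype pools 1, 2 and 3. The knockout pool was the higher one within every number, by 0.31, 0.49 and 0.34, although the pools of different numbers overlapped. The log2 difference was 0.38 (SE 0.37, 95% interval −0.45 to 1.21, limma adjusted p = 0.998), and 0.26 was the SE with the pool number as a block (limma adjusted p = 0.787). The second Jag2 probe set, 1426431_at, was below the filter and gave differences of 0.38, 0.45 and −1.24 within pool numbers 1, 2 and 3.

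The fringe enzymes Rfng, Mfng and Lfng all add N-acetylglucosamine to fucose on the receptor, and the genotypes overlapped for each. Rfng had signals of 612, 476 and 503 in knockout pools 1, 2 and 3, against 585, 397 and 287 in wildtype pools 1, 2 and 3. It was higher in knockout within all 3 numbers, by 0.06, 0.24 and 0.73, with a log2 difference of 0.35 (SE 0.30, 95% interval −0.33 to 1.02, limma adjusted p = 0.998). The other Rfng probe set, 1421160_a_at, was below the filter, with 0.29, 0.31 and −0.18 within the numbers. Mfng had signals of 325, 246 and 207 in knockout pools 1, 2 and 3, against 247, 194 and 457 in wildtype pools 1, 2 and 3. Wildtype pool 3 was the highest and wildtype pool 2 the lowest, so that the knockout pools lay inside the wildtype range. The log2 difference was −0.12 (SE 0.34, 95% interval −0.90 to 0.65, limma adjusted p = 0.998), and it was 0.19 without wildtype pool 3 and 0.01 without knockout pool 3. Lfng, the fringe enzyme that times the segmentation clock in the embryo, was not tested. Its probe set 1420643_at had signals of 141, 46.9 and 166 in knockout pools 1, 2 and 3, against 65.0, 46.8 and 106 in wildtype pools 1, 2 and 3, and 1449943_at lay between 3.4 and 9.1 in all pools. The probe set 1420643_at gave a log2 difference of 0.43, and 0.80, 0.00 and 0.50 within the numbers.

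Dner, a neuronal surface protein reported as a Notch ligand in cerebellar glia, varied least of the 9 tested genes. Its probe set 1456379_x_at, whose suffix marks probes that can also match other transcripts, had signals of 1489, 1376 and 1690 in knockout pools 1, 2 and 3, against 1689, 1664 and 1280 in wildtype pools 1, 2 and 3. The knockout mean was 1518 ± 159 and the wildtype mean 1544 ± 229 (SD, n = 3 each), with a log2 difference of −0.02 (SE 0.28, 95% interval −0.64 to 0.61, limma adjusted p = 0.999) that turned to 0.04 with quantile normalization. The second probe set, 1423671_at, had signals of 1061, 1002 and 1054 in knockout pools 1, 2 and 3, against 1101, 1256 and 1128 in wildtype pools 1, 2 and 3. There the groups did not overlap, with a log2 difference of −0.15 (SE 0.26, 95% interval −0.74 to 0.44, limma adjusted p = 0.999 over all probe sets). In all, 14 of the 18 probe sets of the 10 genes passed the filter. Of these 14, limma called 0 on their own (0.00909% of all 22012 probe sets above the filter) and 2 had an unadjusted p under 0.05 (3.36%). The groups did not overlap for 3 of the 14 (9.95% of all), with 1 higher in knockout (5.23%) and 2 lower (4.72%). Notch1 1418633_at, which passed the filter only through its wildtype signals, is in the count by unadjusted p and among the lower ones. These counts are therefore a description.

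Several of the genes had their extremes in the same pools. Notch1, Dll3, Jag2 and Rfng each had the highest of their 6 signals in knockout pool 1, as did 32.6% of all tested genes. Notch2, Jag1, Dll1 and Dner each had the highest in knockout pool 3, as did 17.2% of all tested genes. For Dner, wildtype pool 1 came within 1 signal unit of it. Mfng was highest in wildtype pool 3, as were 13.3%. Jag1 and Dll1 were both lowest in knockout pool 1, as were 19.1% of all tested genes. On the log2 scale, centred on each gene, they stood at −0.92 and −0.56 there, and both were highest in knockout pool 3, at 0.72 and 0.70. The ribosomal protein transcripts stood high in knockout pool 1. The choroid plexus transcript Ttr was highest in knockout pool 1 and low in knockout pool 3 and wildtype pool 1. The part of these transcripts in these patterns was not tested. Over the 6 arrays the SD on the log2 scale ran from 0.17 for Dner to 0.59 for Jag1, beside a median of 0.42 over all tested genes. Being higher in knockout within all 3 pool numbers held for Notch1, Notch2, Jag2 and Rfng, 4 of 9, beside 14.9% of all tested genes, and being lower in all 3 held for 0 of 9, beside 15.4%. The count rests on the brightest probe sets. Of the other probe sets of these 4 genes, that of Notch2 was also higher in all 3 numbers, that of Notch1 was lower in all 3, and those of Jag2 and Rfng, both below the filter, were lower in number 3.

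**Figure D3:**
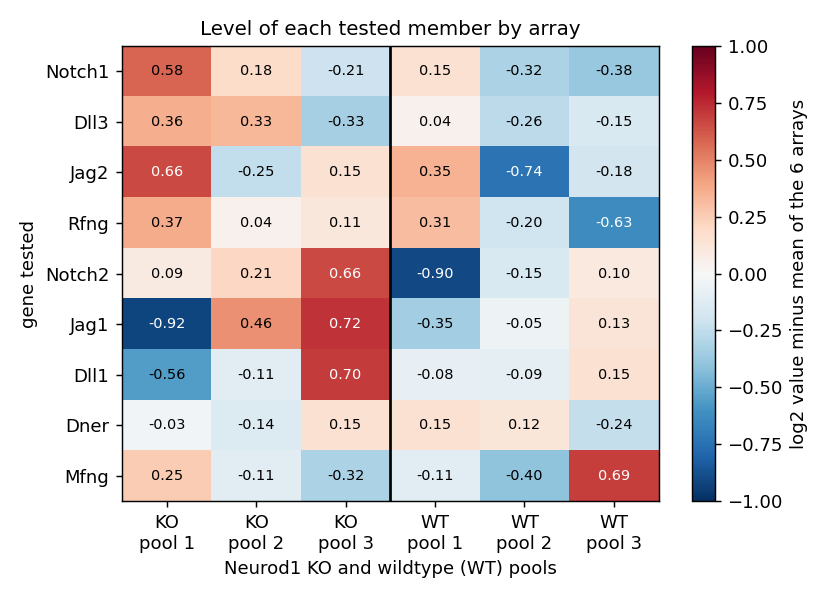
Log2 level of the 9 tested genes (rows) in the knockout pools (KO, left) and wildtype pools (WT, right), each relative to its own mean over the 6 arrays, with the values printed in the cells. Notch1, Dll3, Jag2 and Rfng are highest in knockout pool 1, and Notch2, Jag1, Dll1 and Dner in knockout pool 3.

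The genes whose levels over the 6 arrays lay closest to those of the 3 most variable Notch genes were found by the root mean square difference between log2 profiles centred on their own means. For Jag1 these were Tnrc6c (0.076), Rapgef2 (0.086) and Csf2rb2 (0.086). Tnrc6c, a scaffold of microRNA silencing, had signals of 2131, 5152 and 6701 in knockout pools 1, 2 and 3, against 3231, 3468 and 4048 in wildtype pools 1, 2 and 3. For Notch2 they were Traf1 (0.058), an adaptor of TNF receptors, Galc (0.083), the lysosomal galactosylceramidase, and Calcb (0.098), and for Jag2 they were Eif2ak4 (0.091), Tbccd1 (0.10) and Lima1 (0.12). These are the nearest of 12797 genes over 6 arrays, and the likeness is a description that was not tested.

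The other genes of the Notch pathway were read from lists of 83 genes, of which 77 were named on the platform and 71 were tested. None was called in either direction by limma, and 2 of the 71 (Psen2 and Insm1) had an unadjusted p under 0.05, beside 3.34% of all tested genes. Means were higher in knockout for 40 and lower for 31, beside 53.2% and 46.8% of all tested genes, and the median log2 difference was 0.06. The groups did not overlap for 4 higher genes (Mfap5, Dll4, Notch3 and Psen2) and 3 lower ones (Poglut1, Kat2b and Neurod4), beside 5.77% and 4.33% of all tested genes.

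Among the other receptors and ligands, 7 of 8 had higher means, with a median of 0.28. Notch3, the receptor of pericytes and smooth muscle, had signals of 1455, 1904 and 2265 in knockout pools 1, 2 and 3, against 1325, 1163 and 1123 in wildtype pools 1, 2 and 3. Dll4, the endothelial Delta ligand, had 375, 321 and 247 in knockout pools 1, 2 and 3, against 194, 235 and 153 in wildtype pools 1, 2 and 3. Neither gene showed overlap between the groups, and the log2 differences were 0.60 (SE 0.29) for Notch3 and 0.60 (SE 0.28) for Dll4 (limma adjusted p = 0.998 each). Mfap5, a microfibril protein that binds Jagged ligands, had a log2 difference of 0.59 (SE 0.26). Genes of receptor glycosylation and ligand endocytosis had higher means for 4 of 12 (median −0.13). Poglut1, which adds glucose to EGF-like repeats, had signals of 423, 323 and 355 in knockout pools 1, 2 and 3, against 672, 466 and 488 in wildtype pools 1, 2 and 3, without overlap (log2 difference −0.51, SE 0.26). Genes of receptor cleavage had higher means for 5 of 8 (median 0.16). Psen2, a catalytic subunit of gamma-secretase, had signals of 795, 789 and 1038 in knockout pools 1, 2 and 3, against 496, 529 and 506 in wildtype pools 1, 2 and 3. It had the smallest p of the 71 genes (log2 difference 0.72, SE 0.25, unadjusted p = 0.0178, limma adjusted p = 0.998), with 0.64, 0.54 and 0.98 within pool numbers 1, 2 and 3.

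Receptor trafficking and turnover genes had higher means for 6 of 12 (median 0.01), and genes of the nuclear complex and its co-repressors for 6 of 12 (median −0.01). Kat2b, a histone acetyltransferase that joins the Notch complex, had a log2 difference of −0.52 (SE 0.28) without overlap, and Hdac2, a histone deacetylase, one of −0.71 (SE 0.34). Target genes of the pathway had higher means for 10 of 12 (median 0.13), none with separated groups. Of these, Sox9, Fabp7 and Gfap are also in the list of glia and progenitor markers, and Nrarp is also in the trafficking list. Among them the repressor genes Hey1 and Heyl had log2 differences of 0.01 (SE 0.26) and 0.17 (SE 0.28), and Hes1 had 324, 439 and 470 in knockout pools 1, 2 and 3, against 595, 602 and 426 in wildtype pools 1, 2 and 3 (−0.37, SE 0.27). Hes5, the target most used as a readout in neural progenitors, was below the filter, at 8.4 to 82.4 in knockout pools and 26.1 to 110 in wildtype pools. Hes1, Hes5, Hey1, Hey2 and Heyl were named after their values were seen. Proneural and related factors had higher means for 3 of 8 (median −0.20). Insm1, a zinc finger factor of newborn neurons and endocrine cells, had the smallest p of that list (log2 difference −0.92, SE 0.38, unadjusted p = 0.0362, limma adjusted p = 0.998).

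**Figure D4:**
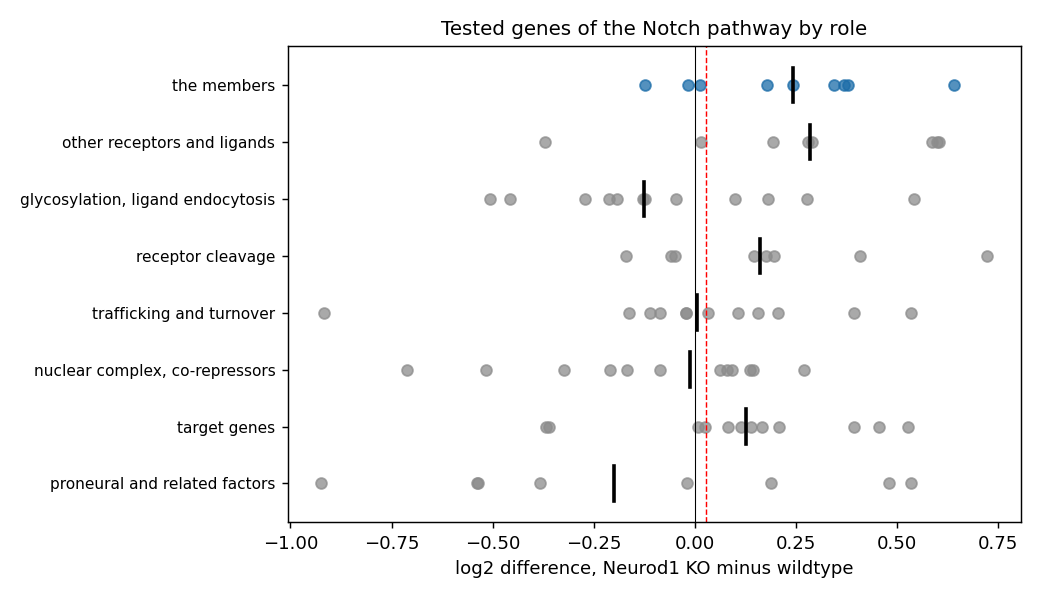
Log2 difference, knockout minus wildtype, of every tested gene of the Notch pathway (points), by role. Blue points are the 9 tested Notch receptor, ligand and fringe genes, black bars are the median of each list, and the red dashed line is the median of all tested genes (0.03). The medians run from −0.20 for proneural and related factors to 0.28 for the other receptors and ligands.

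Marker genes of the cells that a dissected gland can hold were summed per pool, which lets the brightest probe sets of a list weigh most. Beside the counts below, 5.77% of all tested genes were higher in knockout without overlap and 4.33% were lower without overlap. No such share was computed for sums. Pericyte and smooth muscle markers, with Notch3 among them, had higher means for 9 of 9 tested genes, 2 of them without overlap, and their summed signal was 16172 to 25363 in knockout pools, against 12922 to 16066 in wildtype pools. For meningeal fibroblast markers 11 of 11 had higher means, 4 without overlap, with sums of 111237 to 133655 in knockout pools, against 86867 to 93581 in wildtype pools. Glia and progenitor markers had higher means for 7 of 10, with 2 separated higher and 1 lower and sums of 43828 to 71718 in knockout pools, against 37924 to 39602 in wildtype pools. Glul, an enzyme of astrocytes in that list, had signals of 37061, 18854 and 20707 in knockout pools 1, 2 and 3, against 13608, 16382 and 17526 in wildtype pools 1, 2 and 3. Macrophage markers had higher means for 10 of 11, 3 without overlap, with sums of 12234 to 16020 in knockout pools, against 9210 to 10123 in wildtype pools. These 4 sums did not overlap between the groups and were higher in knockout. For pericytes the narrow gap lay between 16172 in knockout pool 1 and 16066 in wildtype pool 2, to which Notch3 gave 1455 and 1163. Without Notch3 the pericyte sums overlap, and without Glul the glia and progenitor sums do. Endothelial markers had higher means for 10 of 12, 2 without overlap, and their sums overlapped (11360 to 18772 in knockout pools, against 11690 to 15302 in wildtype pools). Rgs5, a pericyte marker, had signals of 6069, 9345 and 12886 in knockout pools 1, 2 and 3, against 3588, 7021 and 8784 in wildtype pools 1, 2 and 3. Acta2 of the same pericyte and smooth muscle list had 4029, 4397 and 4644 in knockout pools 1, 2 and 3, against 2763, 3438 and 2273 in wildtype pools 1, 2 and 3. In these 5 lists, Myh11 of smooth muscle and Aif1 of macrophages were below the filter. Pineal cell markers had lower means for 9 of 11, 4 without overlap, and sums of 24730 to 39245 in knockout pools, against 36288 to 51089 in wildtype pools. Proliferation markers had lower means for 7 of 9, with 1 separated higher and 2 lower and sums of 15614 to 18299 in knockout pools, against 18907 to 22740 in wildtype pools. Neuron markers had lower means for 6 of 11, with 1 separated higher and 1 lower and sums of 38842 to 43134 in knockout pools, against 47195 to 52165 in wildtype pools. The sums of proliferation and neuron markers did not overlap between the groups and were lower in knockout. Without Rrm2, the brightest gene of the proliferation list, the proliferation sums overlap. Choroid plexus markers had higher means for 6 of 8, with 0 separated higher and 1 lower. Their sums were 13377 to 107749 in knockout pools, against 16153 to 93437 in wildtype pools. Midbrain and cerebellum markers had lower means for 4 of 6, with 0 separated higher and 1 lower. Their sums were 31167 to 46483 in knockout pools, against 25772 to 33100 in wildtype pools. For both lists the sums overlapped. The part of these cell types in the values of the Notch genes was not tested.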

How the data were processed

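Pineal RNA from 6 pools was amplified in a single round, labelled with biotin and hybridised to Affymetrix arrays, per the labels' protocols. The deposited values are linear signal intensities of 45037 probe sets. GCOS is named in the submitters' processing notes, and the algorithm and its version are not given in the sources used here. The deposited intensity columns had 2% trimmed means between 499.54 and 499.96, so the authors had scaled each array to 500. No pair of arrays shared over 0.127% identical values. Detection calls and scanner files were not analysed here.

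Values were used as log2(signal + 38.6), the offset being the 20th percentile of all values, so differences of dim genes are understated. The annotation gave 34945 probe sets 1 gene, 932 several and 9160 none, and 34741 matched the RefSeq table. Probe sets in the lowest 40% by mean log2 value (a signal under 104.7) were left out, and each gene took its probe set of highest mean. limma 3.58.1 (R 4.3.3; lmFit, eBayes with trend) compared 3 knockout with 3 wildtype pools over 12797 genes, two-sided, with Benjamini-Hochberg adjustment. Other probe sets were tested in a fit over all 22012 named probe sets above the filter. The fit was checked on simulated data. Precision is limited by the number of arrays; the median SE was 0.34.

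The labels give pools of a number a shared date, and deviations from the group means correlated by 0.316, 0.253 and 0.36 within numbers 1, 2 and 3. The number was therefore a block in an alternative fit. Alternatives changed the offset, normalization, filter, probe sets, variance model, array weights and pools. The series text calls the 3 samplings biological. The Notch genes and all lists were chosen with earlier results of these data known. Genes were named from the Notch genes, Neurod1, up to 3 genes per pathway list with the smallest p, the 2 brightest per marker list and the 3 genes nearest in profile to the 3 most variable Notch genes. Only some of those from the pathway and marker lists are named in the text. Hes1, Hes5, Hey1, Hey2, Heyl, Fabp7, Neurod4, Myh11 and Aif1 were added after their values were seen.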

Additional observations from a re-analysis of the deposited data

How the results depend on the processing

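No Notch gene was called under any alternative except limma's array weights, which called 2 of 9, Notch1 (0.46) and Dll3 (0.52), among 2932 genes called in all (22.9% of those tested). The estimate of these weights stopped before it converged, and it gave knockout pool 2 a weight of 6.203, wildtype pool 2 one of 7.051 and the other 4 pools 0.204 to 0.541. Over all genes the count was 1 (Neurod1), and it was 0 with no offset, with quantile normalization and without both pools numbered 1, 2 or 3, and ran from 0 to 1 over the fits that left out 1 pool (0 without any one wildtype pool or knockout pool 1). The cause was not tested. The fit with the replicate block called 1 gene, and the block changed no call of a Notch gene. Signs turned for Dner, Mfng, Dll1, Jag1 and Notch1. Dner was 0.04 with quantile normalization, and 0.06 or 0.11 without both pools numbered 1 or 2. Mfng was 0.21 with array weights. Without both pools numbered 3, Dll1 was −0.25, Jag1 −0.03 and Mfng 0.32. The mean of both probe sets made Notch1 −0.48. With 1 pool left out, the log2 difference ran from −0.33 to 0.30 for Dll1, from −0.14 to 0.68 for Jag1, from −0.36 to 0.19 for Mfng and from −0.14 to 0.05 for Dner, and kept its sign for Notch1 (0.17 to 0.56), Notch2 (0.35 to 0.85), Dll3 (0.12 to 0.47), Jag2 (0.10 to 0.65), Rfng (0.12 to 0.59) and Lfng (0.19 to 0.82), moving by over 1.5 times for each. The alternatives without both pools of a number, and the tests of single probe sets, were chosen after seeing the data.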
